A study of Mus musculus with 6 samples.

Results

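The fatty acid elongases and the Fads desaturases are a set of 10 genes, *Elovl1* to *Elovl7* and *Fads1* to *Fads3*, described here in inguinal white adipose tissue (iWAT). The members were chosen by gene family and symbol, by a rule that uses no measured value, and each of the 10 had its own row among the 19445 gene loci measured. RNA-Seq was performed on iWAT of 3 *Hlx* transgenic mice (TG) and 3 wild-type littermates (WT), which the labels give as male and 12 weeks old, each mouse giving 1 library of 100-base single-end reads. The transgene carries the full-length cDNA of *Hlx*, a homeobox transcription factor, behind the adipocyte-directed aP2 (*Fabp4*) promoter. Founders were made in C57BL/6 and SJL hybrid embryos and backcrossed to C57BL/6, and the sources used here do not say how many founder lines entered the libraries. The values are FPKM, the read density of a gene scaled by transcript length and by the mapped reads of the library, so levels of different genes can be set beside each other.

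A very long chain acyl-CoA is made in the endoplasmic reticulum by a repeated cycle that adds a pair of carbons. An Elovl enzyme catalyses the first and rate-limiting condensation of each cycle, and which Elovl is present sets the chain length and the degree of saturation that can be extended. Fads1 and Fads2 insert double bonds near the carboxyl end, and they alternate with Elovl5 and Elovl2 to turn dietary linoleic and alpha-linolenic acid into arachidonic acid and the long omega-3 acids. In adipose tissue, Elovl6 extends the palmitate that comes from de novo lipogenesis, and Elovl3 is long known as a gene of brown fat that is induced by cold.

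Before the members, the libraries were checked. FPKM summed to between 466059 and 542096 per library. The absolute depth is unknown, and the relative depth ranged from 0.691 to 1.41 with WT replicate 3 as the reference. It was read from the most common ratio between a library and the reference over loci under 0.3 FPKM in both, and in the other 5 libraries 12.7% to 15.8% of these loci lay within 0.01 log2 units of that ratio. *Hlx* had 110, 79.6 and 99.5 FPKM in TG replicates 1 to 3 and 6.88, 7.35 and 8.14 FPKM in WT replicates 1 to 3, and each TG library stood above each WT library. The sex label went against the data: *Xist*, which is expressed from the inactive X chromosome of females, had 20.2 to 33.6 FPKM in all 6 libraries, and the 28 loci of the Y chromosome with a row were listed at 0 in all 6. The animals are therefore called mice of the 2 genotypes here, without a sex. Tests between the genotypes used limma on log2(FPKM + 1) for the 11692 loci whose mean FPKM passed 1 in TG or in WT, and a gene is called changed at a Benjamini-Hochberg adjusted p under 0.05 over all of these loci. Fold changes (log2) are on this scale, where the added 1 shrinks those of weakly expressed genes. With 3 mice against 3, the exact permutation test of a single value cannot give a two-sided p under 0.1. In bulk tissue, fewer cells of a type and less RNA per cell cannot be told apart.

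The sequences just upstream of 3 members are shown because *Elovl6* and *Elovl5* were the most abundant members that rose. *Fads3*, in TG of like abundance to *Elovl5* but not to *Elovl6*, did not pass the test. They come from RefSeq (GRCm38.p6), are read 5′ to 3′ on the + strand, on which all 3 genes lie, and end before both the RefSeq start and the first annotated transcript base. They cover chr9:77917115-77917363 for *Elovl5*, chr3:129532136-129532354 for *Elovl6* and chr19:10041298-10041547 for *Fads3*. Capitals mark CCAAT, the box bound by NF-Y, or its reverse complement ATTGG.
Elovl5: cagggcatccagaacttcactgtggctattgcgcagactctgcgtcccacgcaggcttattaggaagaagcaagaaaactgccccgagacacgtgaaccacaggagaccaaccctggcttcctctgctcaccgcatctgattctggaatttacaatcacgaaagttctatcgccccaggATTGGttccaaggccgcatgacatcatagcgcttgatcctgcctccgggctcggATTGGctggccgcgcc
Elovl6: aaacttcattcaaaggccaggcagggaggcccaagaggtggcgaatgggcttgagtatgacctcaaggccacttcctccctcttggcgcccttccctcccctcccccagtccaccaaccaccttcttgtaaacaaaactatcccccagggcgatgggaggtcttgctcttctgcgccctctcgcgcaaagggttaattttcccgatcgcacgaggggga
Fads3: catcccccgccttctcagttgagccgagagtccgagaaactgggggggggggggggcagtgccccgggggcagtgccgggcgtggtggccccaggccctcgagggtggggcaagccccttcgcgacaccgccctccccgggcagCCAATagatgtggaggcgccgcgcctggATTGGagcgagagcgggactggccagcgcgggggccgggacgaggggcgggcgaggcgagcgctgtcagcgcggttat

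Windows of 250 bases before a RefSeq start were found for 8 of the 10 members, 10 windows in all, and *Elovl3* and *Fads1* were not among them. A total of 4 motifs was searched on both strands in these windows. CCAAT was present in the windows of 3 members: *Elovl1* at 35 bases before the RefSeq start, *Elovl5* at 71 and 17 bases, and *Fads3* at 106 and 78 bases. Of all 32851 RefSeq windows of this length, 33.8% hold it, so 3 of 10 member windows is close to that share. The other 3 motifs were the sterol regulatory element TCACNCCAC (1.05% of all windows), DR1, a direct repeat of AGGTCA with 1 free base between the copies that PPAR receptors bind (0.0335%), and DR4, the same repeat with 4 free bases that LXR binds (0.0152%), and no member window held one. Absence of these letters says only that they are not in these windows. The GC content was 55.6% for the *Elovl5* window, 56.4% for that of *Elovl6* and 74.4% for that of *Fads3*, with a median of 52.4% over all windows.

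Of the 10 members, 7 had enough FPKM to be tested, 4 elongases and all 3 desaturases. *Elovl3*, *Elovl5* and *Elovl6* rose in TG iWAT, *Fads1* fell, and *Elovl1*, *Fads2* and *Fads3* did not pass the test. Without the FPKM filter *Elovl6* stayed called (limma adjusted p = 0.032), and *Elovl3*, *Elovl5* and *Fads1* did not (adjusted p = 0.0618, 0.053 and 0.0632). Over all 11692 loci tested, 11.6% were called higher and 7.03% lower, 18.6% in either direction, so 3 higher and 1 lower of 7 is a larger share than the background, and with so few members no more is read from it. The ranges of the genotypes did not overlap for 5 of the 7 members and for 42.9% of all loci tested. The median log2 fold change of the 7 was -0.07, and that of all loci tested was -0.01. *Elovl2*, *Elovl4* and *Elovl7* had a mean FPKM under 1 in both genotypes and are given as values only.

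**Figure D1:**
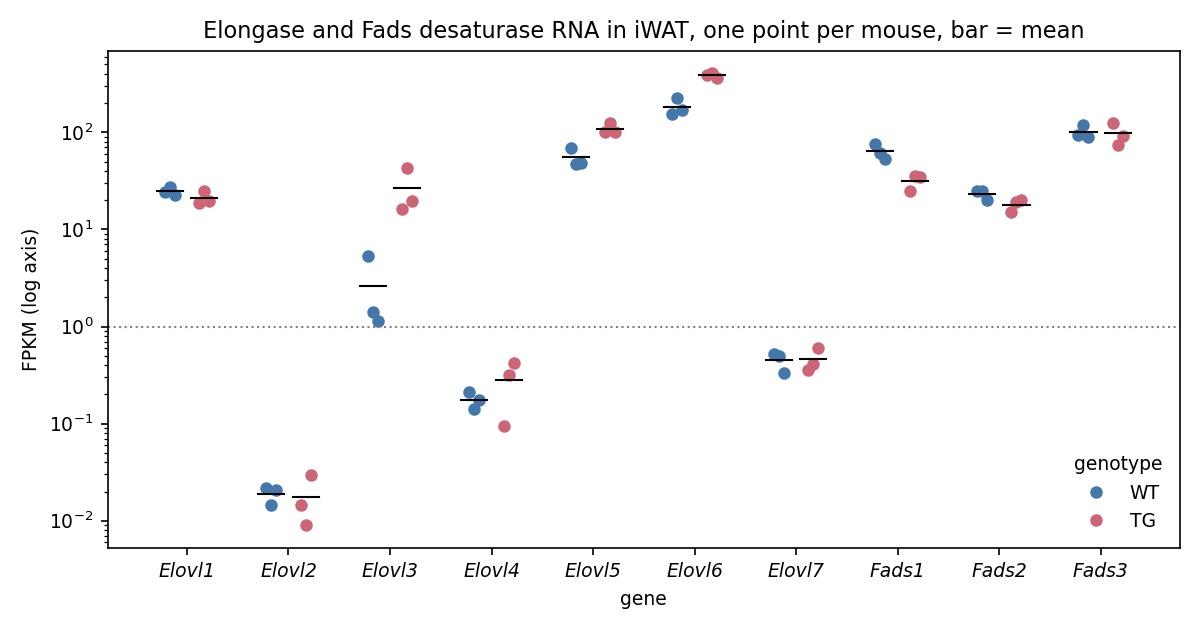
FPKM of the 10 members on a log axis, with 1 point for each of the 3 WT (blue) and 3 TG (red) mice, a black bar at the mean and a dotted line at 1 FPKM. The 3 TG libraries of *Elovl6* sit between 362 and 405, above the WT libraries at 156 to 226, and those of *Fads1* sit between 24.9 and 35.5, below WT at 53.5 to 76.4, while the ranges of *Fads3* overlap.

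*Elovl6*, the elongase that turns palmitate into stearate, was the most abundant member in every library. It lies on the + strand of chromosome 3 of mm10, from 129532355 to 129638495, and shares 34 of its 6431 exon bases with *Gm35986*. It had 392, 405 and 362 FPKM in TG replicates 1 to 3 and 156, 226 and 169 FPKM in WT replicates 1 to 3. The genotypes did not overlap, with 137 FPKM between the lowest TG and the highest WT library. WT averaged 184 ± 36.9 FPKM and TG 387 ± 22.0 FPKM (SD, n = 3 each), a 2.1-fold rise with a log2 fold change of 1.09 (SE 0.15, 95% interval 0.73 to 1.44, limma adjusted p = 0.00438).

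*Elovl3*, which extends saturated and monounsaturated chains, had the largest fold change of the members. It lies on the + strand of chromosome 19, from 46131897 to 46135694, and shares 10 of its 1975 exon bases with *Pitx3*. It had 16.4, 43.1 and 19.7 FPKM in TG replicates 1 to 3 and 5.36, 1.41 and 1.13 FPKM in WT replicates 1 to 3. All 3 TG libraries were above all WT libraries, by 11.1 FPKM at the nearest, but TG replicate 2 was far above the other TG mice and WT replicate 1 far above the other WT mice. WT averaged 2.63 ± 2.36 FPKM and TG 26.4 ± 14.6 FPKM (SD, n = 3 each), a 10-fold ratio, and the log2 fold change was 2.98 (SE 0.49, 95% interval 1.81 to 4.14, limma adjusted p = 0.00866). Without TG replicate 2 it was 2.57 (adjusted p = 0.0185), and without WT replicate 1 it was 3.47 (adjusted p = 0.00553, limma). TG replicate 2 also had the most RNA of skeletal muscle markers, 494 FPKM summed over 7 of 8 markers, against 65.4 and 94.5 in the other TG mice. The sums were 5.39, 95.6 and 25.0 FPKM in WT replicates 1 to 3. The part of muscle RNA in the level of *Elovl3* was not tested. Skin and sebaceous gland are known to express *Elovl3*. Their markers summed to 6.69 to 9.82 FPKM in TG and 5.41 to 6.94 FPKM in WT over 7 markers. *Krt1* and *Krt71* were listed at 0 in at least 1 library. Of the 3 of these 7 markers that were tested, *Krt79* was called higher and *Mc5r* lower in TG. *Mc5r* had a mean of 0.405 FPKM in TG and 1.41 FPKM in WT. It passed the FPKM filter through WT alone, where it is high, so nothing is read from its call. *Krt79* had 6.82, 4.71 and 4.29 FPKM in TG and 2.46, 2.25 and 1.86 FPKM in WT, the larger part of each TG sum. Most of the other markers had a lower mean in TG, so the sum gives the list no direction. The part of this list was not tested.

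*Elovl1*, a broadly expressed elongase of saturated very long chains that feeds sphingolipids, did not pass the test. It lies on the + strand of chromosome 4, from 118428093 to 118432953, and shares 53 of its 2726 exon bases with *Cdc20*. It had 18.9, 24.6 and 19.4 FPKM in TG replicates 1 to 3 and 24.4, 27.6 and 22.8 FPKM in WT replicates 1 to 3, and the genotypes overlapped. The log2 fold change was -0.24 (SE 0.12, 95% interval -0.53 to 0.05, limma adjusted p = 0.2), and the interval includes 0.

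*Elovl5*, like *Elovl2* an elongase of polyunsaturated chains, takes chains after the action of Fads2. It lies on the + strand of chromosome 9, from 77917364 to 77984519. It had 101, 124 and 101 FPKM in TG replicates 1 to 3 and 69.3, 47.4 and 48.9 FPKM in WT replicates 1 to 3. All TG libraries stood above all WT libraries, by 32.0 FPKM at the nearest. WT averaged 55.2 ± 12.2 FPKM and TG 109 ± 12.8 FPKM (SD, n = 3 each), a 1.97-fold rise with a log2 fold change of 0.98 (SE 0.16, 95% interval 0.59 to 1.37, limma adjusted p = 0.00886).

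*Elovl2*, the next enzyme of that chain towards docosahexaenoic acid and chiefly a gene of liver and retina, was at the limit of what these libraries can count. It lies on the - strand of chromosome 13, from 41182381 to 41220405, and had 0.00899 to 0.0297 FPKM in TG and 0.0145 to 0.0218 FPKM in WT. Multiplied by the relative depth of each library, these values are close to 1, 1 and 2 times a single lowest step in TG replicates 1 to 3 and 2 times in every WT library, the spacing that 1 or a few reads would give. *Elovl4*, which makes the longest chains of skin and retina, lies on the - strand of chromosome 9, from 83778692 to 83806277, and had 0.0937, 0.317 and 0.426 FPKM in TG and 0.142 to 0.213 FPKM in WT. *Elovl7*, an elongase of saturated chains, lies on the + strand of chromosome 13, from 108214404 to 108285683, and had 0.359 to 0.607 FPKM in TG and 0.335 to 0.521 FPKM in WT. The genotypes overlapped for all 3, and no test was run on them.

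The 3 desaturases lie next to each other on chromosome 19 in the order *Fads3*, *Fads2* and *Fads1*, with 2654 bases between *Fads3* and *Fads2* and 81141 bases between *Fads2* and *Fads1*. Of the 3, *Fads1* passed the test. *Fads1*, the desaturase that makes arachidonic acid, lies from 10182888 to 10196877 on the + strand and had 24.9, 35.5 and 34.5 FPKM in TG replicates 1 to 3 and 76.4, 60.8 and 53.5 FPKM in WT replicates 1 to 3. All TG libraries were below all WT libraries, by 18.1 FPKM at the nearest. WT averaged 63.6 ± 11.7 FPKM and TG 31.6 ± 5.82 FPKM (SD, n = 3 each), so that WT had 2.01 times the level of TG, and the log2 fold change was -0.99 (SE 0.18, 95% interval -1.4 to -0.57, limma adjusted p = 0.0111).

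*Fads2*, which performs the first desaturation of both dietary polyunsaturated acids, lies from 10062765 to 10101746 on the - strand. It had 15, 19.0 and 20.1 FPKM in TG replicates 1 to 3 and 25.1, 24.6 and 20.1 FPKM in WT replicates 1 to 3. The highest TG and the lowest WT library were 0.052 FPKM apart, so the genotypes all but touched, and the log2 fold change of -0.35 did not pass the test (SE 0.13, 95% interval -0.67 to -0.04, limma adjusted p = 0.107). *Fads3*, a family member whose activity is on sphingoid bases, lies from 10041569 to 10060110 on the + strand. It had 125, 74.5 and 92.6 FPKM in TG and 93.7, 120 and 88.5 FPKM in WT, with TG replicate 1 the highest and TG replicate 2 the lowest of all 6. The log2 fold change was -0.07 (SE 0.2, 95% interval -0.55 to 0.41, limma adjusted p = 0.827), and it changed sign without TG replicate 2 (0.1) or WT replicate 2 (0.06), so these data give it no direction.

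**Figure D2:**
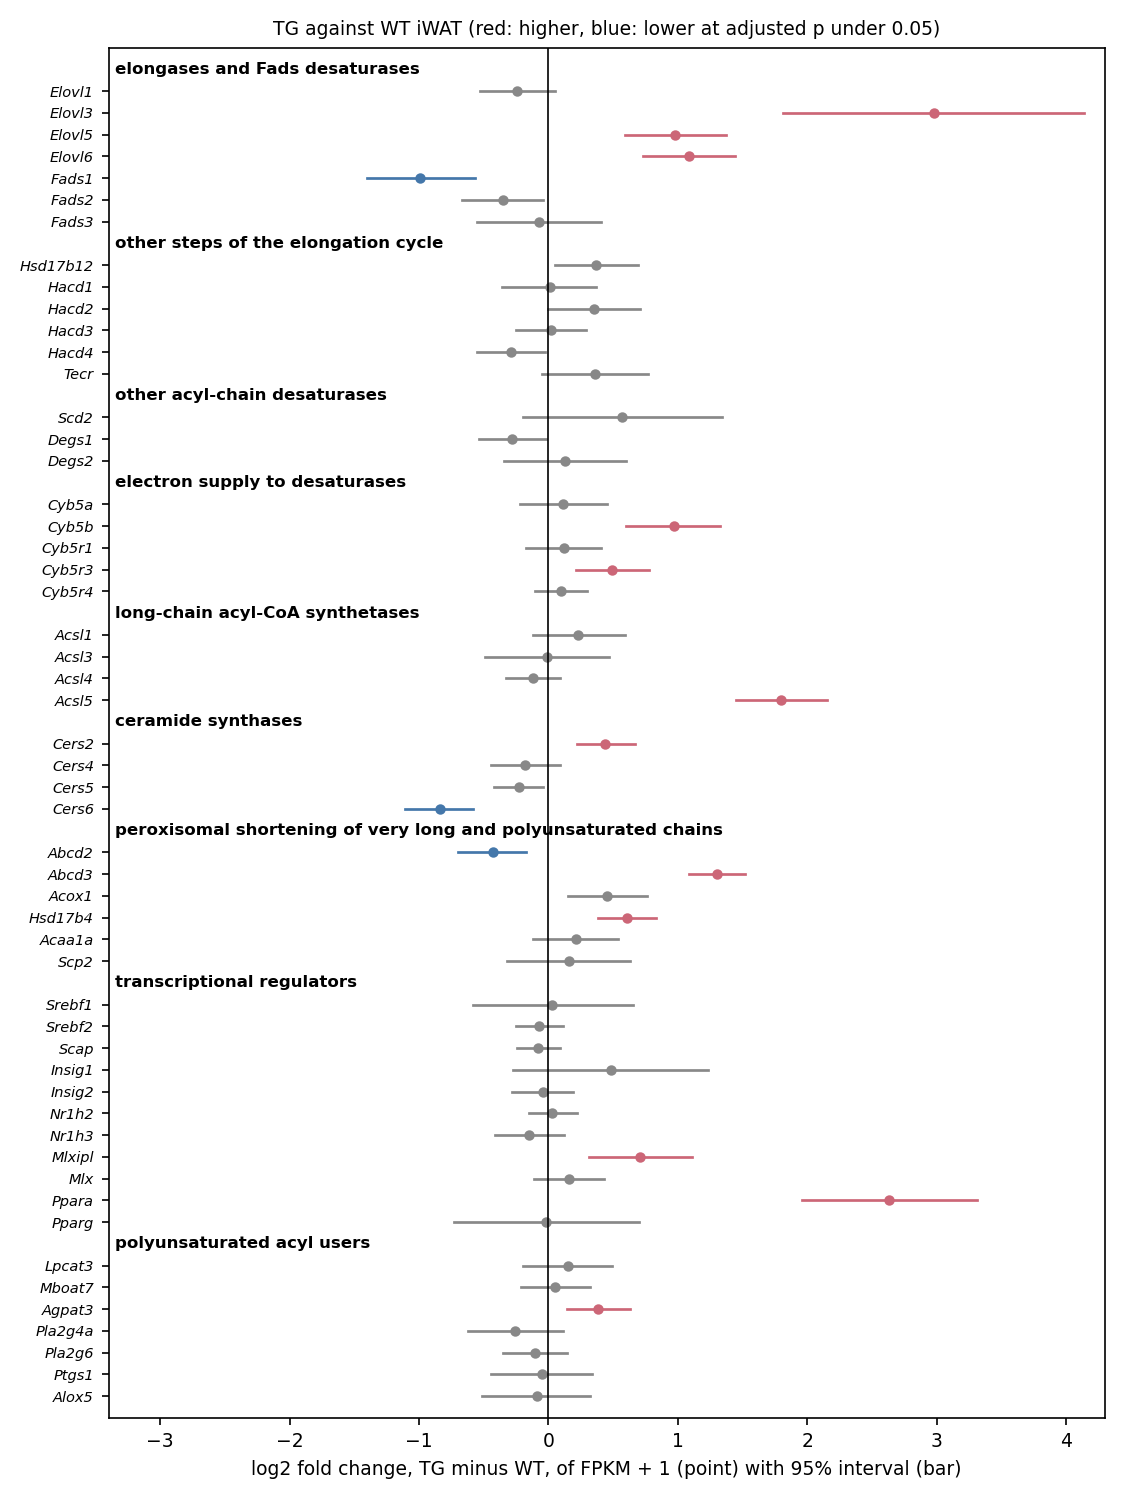
Log2 fold change (TG minus WT, log2(FPKM + 1) scale) of the 7 tested members and of tested genes of the 8 pathway lists, with the 95% interval from limma as a bar, red where called higher, blue where called lower and grey where not called. *Elovl3* (2.98), *Elovl6* (1.09) and *Elovl5* (0.98) lie to the right of 0 and *Fads1* (-0.99) to the left, and of the pathway genes *Ppara* (2.63) lies farthest to the right and *Cers6* (-0.84) farthest to the left.

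The order of the levels differed between the genotypes. In WT, the order by mean FPKM was *Elovl6* (184), *Fads3* (101), *Fads1* (63.6), *Elovl5* (55.2), *Elovl1* (24.9), *Fads2* (23.3), *Elovl3* (2.63), *Elovl7* (0.451), *Elovl4* (0.176) and *Elovl2* (0.0189). Only *Fads1* with *Elovl5* and *Elovl1* with *Fads2* had overlapping ranges among neighbours in that order. In TG, the order was *Elovl6* (387), *Elovl5* (109), *Fads3* (97.3), *Fads1* (31.6), *Elovl3* (26.4), *Elovl1* (21.0), *Fads2* (18.0), *Elovl7* (0.459), *Elovl4* (0.279) and *Elovl2* (0.0177). There the ranges of *Elovl5* and *Fads3* overlapped, as did those of each neighbouring pair from *Fads1* to *Fads2* and those of *Elovl7* and *Elovl4*. By its mean *Elovl5* stood under *Fads3* and *Fads1* in WT and above both in TG, and *Elovl3*, far below *Elovl1* in WT, overlapped it in TG.

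To ask whether the makeup of the elongase and desaturase RNA changed, each member was given as a share of the summed FPKM of the 7 elongases or of the 3 desaturases in its own library. The summed elongases had 529, 598 and 504 FPKM in TG replicates 1 to 3 and 256, 303 and 242 FPKM in WT replicates 1 to 3. Every TG library was above every WT library (two-sided exact permutation p = 0.1). Most of this sum was *Elovl6* and *Elovl5*, each higher in every TG than in every WT library. The lack of overlap of the sum follows from their levels and adds no further evidence. *Elovl6* made up 71.3% ± 3.16 of the elongase RNA in TG and 68.4% ± 6.84 in WT, and *Elovl5* made up 20% ± 0.765 and 21.0% ± 5.73 (SD, n = 3 each). The genotypes overlapped for both shares (exact permutation p = 0.7 and 0.8, adjusted 0.875 and 0.889). *Elovl1* held 3.57%, 4.12% and 3.85% in TG and 9.52%, 9.11% and 9.41% in WT, narrow groups with no overlap (exact p = 0.1, adjusted 0.25). Its level was not called, and the sum that divides it was higher in every TG library, so the share adds no evidence of a fall in *Elovl1*. *Elovl7*, with mean levels of 0.459 FPKM in TG and 0.451 FPKM in WT, also held a smaller share in every TG library (exact p = 0.1, adjusted 0.25). *Elovl3* held 3.1%, 7.22% and 3.91% in TG and 2.09%, 0.467% and 0.467% in WT, also without overlap (exact p = 0.1, adjusted 0.25). The adjustment was over 10 shares.

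The summed desaturases had 165, 129 and 147 FPKM in TG and 195, 206 and 162 FPKM in WT, and the genotypes overlapped (exact permutation p = 0.2). *Fads1* held 15.1%, 27.5% and 23.4% of this RNA in TG and 39.1%, 29.5% and 33.0% in WT (exact p = 0.1, adjusted 0.25). *Fads2* held 12.5% ± 3.0 in TG and 12.4% ± 0.457 in WT (SD, n = 3 each; exact p = 1.0). *Fads3* held the rest, 65.5% ± 9.28 in TG and 53.7% ± 5.31 in WT (SD, n = 3 each; exact p = 0.2, adjusted 0.333), and the difference of 11.8 points was 6.63 points without TG replicate 1. Of the desaturases, the share of *Fads1* was the one whose groups did not overlap.

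**Figure D3:**
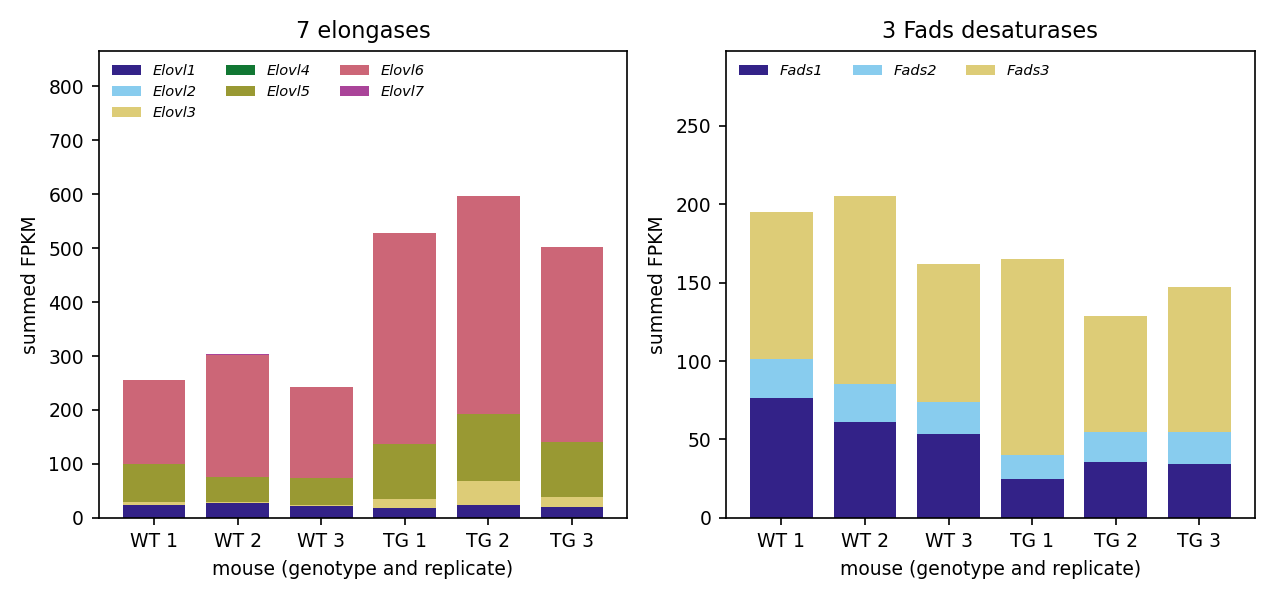
Summed FPKM of the 7 elongases (left) and of the 3 *Fads* genes (right), 1 stacked bar for each mouse from 0, with a colour for each gene. The elongase bars reach 504 to 598 FPKM in TG and 242 to 303 FPKM in WT and are mostly *Elovl6*, and the *Fads1* part is 24.9 to 35.5 FPKM in TG and 53.5 to 76.4 FPKM in WT.

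Ratios of members within a library are given next, which do not move with the scaling of the library. *Elovl5* over *Fads1* was 4.07, 3.48 and 2.94 in TG replicates 1 to 3 and 0.907, 0.78 and 0.913 in WT replicates 1 to 3. The log2 ratio was 1.79 ± 0.24 in TG and -0.21 ± 0.13 in WT (SD, n = 3 each), a difference of 2.0 with no overlap (exact permutation p = 0.1, adjusted over 4 ratios 0.133). *Elovl5* over *Fads2* was 6.77, 6.49 and 5.04 in TG and 2.76, 1.93 and 2.43 in WT, a log2 difference of 1.37, also with no overlap (exact p = 0.1, adjusted 0.133). For both ratios the lack of overlap follows from the levels, since *Elovl5* was higher and *Fads1* and *Fads2* lower in every TG than in every WT library, so they describe the size of the gap and add no further evidence. *Fads2* over *Fads1* was 0.601, 0.537 and 0.582 in TG and 0.329, 0.404 and 0.376 in WT, a log2 difference of 0.64 without overlap (exact p = 0.1, adjusted 0.133), so relative to its neighbour in the cluster *Fads1* was lower in each TG mouse than in any WT mouse. *Elovl6* over *Elovl5* overlapped, with log2 ratios of 1.83 ± 0.12 in TG and 1.74 ± 0.54 in WT (SD, n = 3 each; exact p = 0.8, adjusted 0.8). *Elovl6* over *Scd1*, the desaturase that makes oleate, could be read in 3 libraries only and was not tested, because *Scd1* was listed at 0 in TG replicates 1 and 2 and WT replicate 2 beside 9319, 7086 and 7395 FPKM in the others.

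**Figure D4:**
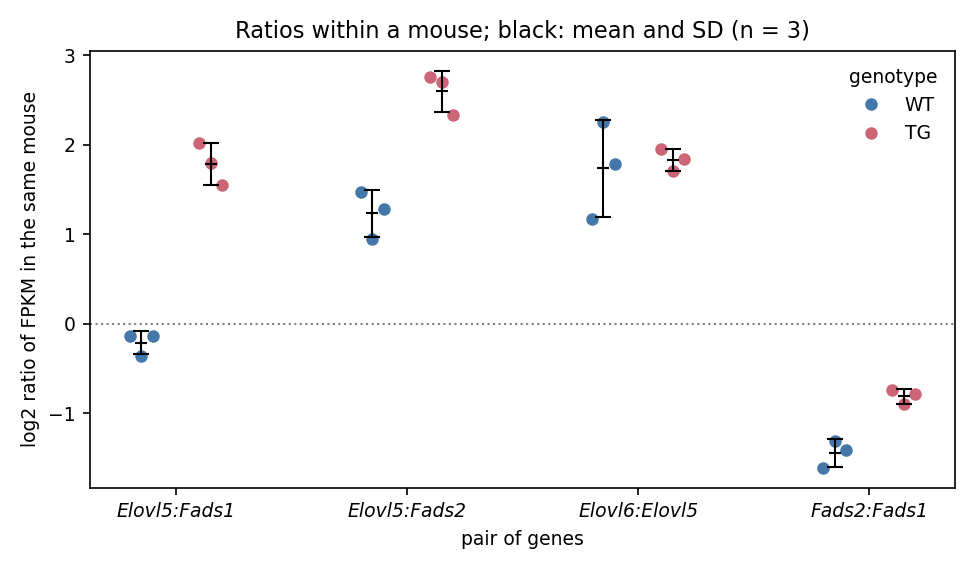
Log2 ratio of FPKM within each library for *Elovl5* to *Fads1*, *Elovl5* to *Fads2*, *Elovl6* to *Elovl5* and *Fads2* to *Fads1*, with a point for each WT (blue) and TG (red) mouse and the mean and SD of each genotype in black (n = 3 mice). The TG libraries of *Elovl5* to *Fads1* lie between 1.55 and 2.02 and the WT libraries between -0.36 and -0.13, while those of *Elovl6* to *Elovl5* overlap.

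The genes that work before, beside and after the members were taken from 8 lists, 58 genes of which 57 had a row and 47 were tested. Of these, 10 were called higher and 2 lower and the median change (log2) was 0.11, beside 11.6% higher and 7.03% lower and a median of -0.01 over all loci. None of the 6 other enzymes of the elongation cycle passed limma's test (median 0.18), and 2 had an unadjusted p under 0.05. *Hsd17b12*, the ketoacyl reductase, had 194 ± 11.5 FPKM in TG and 152 ± 26.5 FPKM in WT (log2 fold change 0.37, adjusted p = 0.0986), and *Tecr*, the enoyl reductase, had 429 ± 71.1 and 335 ± 60.7 FPKM (0.36, adjusted p = 0.187, limma; SD, n = 3 each). *Hsd17b12* was called higher without WT replicate 1 (0.51, adjusted p = 0.029), and quantile normalization brought it to 0.11 and *Tecr* to 0.02. Whether these enzymes differ in their change from the Elovl enzymes was not tested. Of the 3 other desaturases tested none was called by limma, 1 had an unadjusted p under 0.05, and *Scd2*, on a row it shares with *Mir5114*, had 203 ± 74.0 FPKM in TG and 137 ± 53.7 FPKM in WT (SD, n = 3 each; log2 fold change 0.57, limma adjusted p = 0.252).

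Among the 5 tested genes of cytochromes b5 and their reductases, listed for electron supply to desaturases, 2 rose. *Cyb5b*, the cytochrome b5 of the outer mitochondrial membrane, went from 138 ± 20.3 to 270 ± 43.8 FPKM (log2 fold change 0.97, adjusted p = 0.00789), and *Cyb5r3*, the reductase, from 116 ± 2.79 to 165 ± 24.5 FPKM (0.49, adjusted p = 0.0322, limma; SD, n = 3 each). *Cyb5a*, the microsomal cytochrome b5 that serves the Fads enzymes, had 720 ± 76.7 FPKM in TG and 666 ± 77.6 FPKM in WT and was not called (0.11, adjusted p = 0.598). Of 4 acyl-CoA synthetases tested, *Acsl5* rose, from 35.6 ± 4.31 in WT to 127 ± 23.4 FPKM in TG (1.8, adjusted p = 0.000792, limma; SD, n = 3 each), and *Acsl1*, the main one of fat, was not called (0.23, adjusted p = 0.298). Of 4 ceramide synthases tested, *Cers2*, which uses the very long chains that Elovl1 makes, rose (log2 fold change 0.44, adjusted p = 0.0215), and *Cers6*, which uses palmitoyl-CoA, fell (-0.84, adjusted p = 0.00403, limma). *Cers6* had 1.59 ± 0.193 FPKM in TG and 3.65 ± 0.405 FPKM in WT (SD, n = 3 each).

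Of 7 genes of peroxisomal chain shortening, which trims very long chains and completes docosahexaenoic acid, 3 rose and 1 fell (median 0.28). *Abcd3*, a peroxisomal transporter, rose from 29.6 ± 2.82 to 74.4 ± 3.04 FPKM (1.3, adjusted p = 0.000518), and *Hsd17b4*, the bifunctional enzyme, rose from 117 ± 5.53 to 178 ± 14.7 FPKM (0.61, adjusted p = 0.00701, limma; SD, n = 3 each). *Abcd2*, also a peroxisomal transporter, fell (-0.43, adjusted p = 0.0377, limma). Of 11 transcriptional regulators tested, 2 rose. *Ppara*, the receptor that drives fatty acid oxidation, had 27.1, 27.8 and 43.0 FPKM in TG and 6.17, 2.54 and 4.85 FPKM in WT (log2 fold change 2.63, adjusted p = 0.00192), and *Mlxipl*, the carbohydrate-responsive factor of lipogenesis, rose from 62.7 ± 6.51 to 105 ± 25.4 FPKM (0.71, adjusted p = 0.031, limma; SD, n = 3 each). *Srebf1*, a known regulator of *Elovl6* and the *Fads* genes, had 191, 113 and 102 FPKM in TG and 141, 149 and 98.6 FPKM in WT, and was not called (0.03, adjusted p = 0.939). *Pparg* was not called either (-0.02, adjusted p = 0.973). Of 7 genes that use polyunsaturated acyl chains, 1 rose, the acyltransferase *Agpat3* (0.38, adjusted p = 0.0449), and *Lpcat3* was not called (0.15, adjusted p = 0.5, limma). The calls of *Cyb5r3*, *Cers2*, *Abcd2*, *Mlxipl* and *Agpat3* were lost in 5 to 8 of 14 other settings, and those of *Cyb5b*, *Acsl5*, *Cers6*, *Abcd3*, *Hsd17b4* and *Ppara* in none of the 14.

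The cell type markers that moved with the genotypes are given beside these results, and their part in them was not tested. Over all loci tested, 11.6% were called higher and 7.03% lower in TG, and the genotypes did not overlap for 42.9%. The marker lists are small, so no more is read from their counts. All 6 adipocyte markers were tested and summed to 28200 to 33500 FPKM in TG and 23900 to 29600 FPKM in WT. Most of each sum was *Fabp4*, with 24600 to 29400 FPKM in TG and 19300 to 23500 FPKM in WT, which was not called. Of the 6 adipocyte markers, only *Adipoq* was called, lower in TG. Of 6 macrophage markers 4 were called lower, with sums of 91.4 to 116 FPKM in TG and 149 to 190 FPKM in WT that did not overlap, and 1 of 10 lymphocyte markers was called lower, with sums of 203 to 314 and 299 to 425 FPKM. Of 6 endothelial markers 2 were called higher, with sums of 149 to 158 and 133 to 142 FPKM. None of 10 epithelial markers was called (median log2 fold change -0.38, sums of 161 to 335 and 267 to 386 FPKM over 9 of them), and 2 had an unadjusted p under 0.05 in limma. None of 8 muscle markers was called either (median 1.8, 1 with an unadjusted p under 0.05), with *Myh4* listed at 0 in WT replicate 1.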

How the data were processed

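RNA-Seq of iWAT from 3 TG and 3 WT mice was analysed, 1 library per mouse, grouped by the genotype in the labels. The authors made unstranded TruSeq libraries, and the submitters' processing notes name CASAVA 1.8.2, TopHat2 2.0.9, Bowtie2 2.1.0, Cufflinks 2.2.1 and the build mm10. The annotation was not given in the sources used here. The authors deposited FPKM per locus and mouse. Without strand, reads of overlapping or antisense genes cannot be told apart.

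From these values log2(FPKM + 1) was computed, and loci whose mean FPKM passed 1 in TG or WT entered limma 3.58.1, run under R 4.3.3 (lmFit, eBayes with trend, two-sided, no covariates). FPKM are not counts, so no count test was run. Shares and ratios were compared with exact permutation tests over 20 arrangements of the mice. The design had 5 ratios, and *Elovl6* to *Scd1* was left out because *Scd1* was listed at 0 in 3 libraries, so the adjustment was over 4. A value of 0 for a gene as abundant as *Scd1* or *Fasn* was treated as listed at 0 and not used. Where a symbol had several rows, the row with the highest mean was taken, and marker sums used rows with that symbol alone. Promoters were read from RefSeq windows of GRCm38.p6. The limma procedure was run on simulated data with independent normal noise at the mean and spread of each locus. Of 100 loci changed 3-fold it called 85%, and of 100 changed 2-fold 81%, and 4.05% of its calls were false. Only better expressed loci were changed, and no outlier mouse or shift of cell types was simulated, so these rates do not cover such cases. Python 3.11.15 with matplotlib 3.10.9 drew the figures.

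The rule for the members uses no measured value, but the families, lists, tests and settings were chosen with earlier results of these data known. Named genes were the 10 members, *Hlx*, called genes of the pathway lists (up to 4 per list), the uncalled gene with the highest FPKM of a list, *Hsd17b12*, *Tecr*, *Scd1*, *Scd2* and *Srebf1*. Of the markers, *Adipoq*, *Fabp4*, *Krt79*, *Mc5r*, *Krt1* and *Krt71* fall partly outside this rule and were named after their values were seen. A gene of the pathway lists that stands in the counts is not reported here. The alternatives were another pseudocount (0.1), quantile or median-ratio normalization, no FPKM filter or one on the mean over all mice, a block for the replicate number, weights for sample quality, no trend in eBayes, the sum of all rows of a symbol, each mouse left out in turn and stricter calls. The 3 mice per genotype are separate animals.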

Additional observations from a re-analysis of the deposited data

How the results depend on the processing

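Of the members, *Elovl6* stayed called in all 15 other settings. Among these 15, the sum of all rows of a symbol could not differ from the main fit, as each member had a single row. *Elovl3*, *Elovl5* and *Fads1* stayed called in 14, and without the FPKM filter they were not (log2 fold changes 2.98, 0.98 and -0.99, adjusted p = 0.0618, 0.053 and 0.0632, limma), which left 1 member called higher and 0 lower. That setting tests all 19445 loci. Its adjustment also called 748 loci higher and 381 lower in all, and 5 pathway genes higher and 1 lower. An adjusted p under 0.01 gave 569 loci higher and 199 lower, and a 2-fold ratio in addition to 0.05 gave 413 and 204. These stricter calls are not among the 15 settings of the members. *Fads1* (adjusted p = 0.0111, limma) misses the first, and *Elovl5* (1.97-fold) misses the second. Leaving out single mice, 780 to 1295 loci were higher and 329 to 906 lower, and 5 to 8 pathway genes were higher and 1 to 2 lower. Sample quality weights gave 4 pathway genes lower. The fold changes with a mouse left out ranged from 2.57 to 3.47 for *Elovl3*, 0.88 to 1.15 for *Elovl5*, 0.98 to 1.24 for *Elovl6*, -1.1 to -0.83 for *Fads1* and -0.26 to 0.1 for *Fads3*, which reversed. Leaving out a mouse also turned the sign of the share differences of *Fads2* (-1.03 to 1.8 points), *Elovl5* (-3.63 to 2.06) and *Elovl6* (-0.847 to 5.9), and that of the *Elovl6* to *Elovl5* log2 ratio (-0.185 to 0.353). Among uncalled pathway genes, quantile normalization reversed *Cyb5a* (-0.22), *Acsl1* (-0.1) and *Srebf1* (-0.16), quality weights reversed *Srebf1* (-0.2), and leaving out a mouse reversed *Srebf1* (-0.24 and -0.15, within a range of -0.24 to 0.21) and *Pparg* (0.11, 0.17 and 0.2, within -0.33 to 0.2). The cause of these moves was not tested.

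The replicate numbers name different animals, and same-numbered mice did not deviate together (r = 0.0129, 0.0344 and 0.0701). With the replicate block, 1230 loci were higher and 656 lower, 3 members higher and 1 lower, and 10 pathway genes higher and 2 lower. The log2 fold changes of the members were the same with the block, with adjusted p = 0.0307 for *Elovl3*, 0.0291 for *Elovl5*, 0.0103 for *Elovl6* and 0.042 for *Fads1*, and *Hlx* had 3.51 (0.00221). Of the named pathway genes, *Mlxipl* (adjusted p = 0.0629) lost its call with the block. No mouse correlated best with its own number. Absolute depth is unknown, so no interval is given for the low values of *Elovl2*, *Elovl4* and *Elovl7*.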
